A study of Rattus norvegicus with 12 samples.

Results

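Transcripts of 10 macrophage marker genes were followed in whole kidney of 4 rat strains. The genes were Csf1r, Cd68, Adgre1, Cd53, Ctss, Mrc1, Cd163, Cx3cr1, Cd14 and Fcgr3a, and every probe set annotated to 1 of them alone was taken. Each gene had 1 such probe set, so 10 genes of 14217 named singly on the Affymetrix Rat 230 array, and 10 of its 31099 probe sets, are described. No probe set carried a member's symbol beside that of another gene.

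The 4 groups were PCK, SD, FHH.Pkhd1 and FHH, all at 30 days of age and on the same 5LOD diet. PCK rats carry a mutation in Pkhd1, whose human counterpart is mutated in the recessive form of polycystic kidney disease, and descend from the outbred SD (Sprague Dawley) stock, with which they are compared. FHH.Pkhd1 is a congenic line, written FHH.PCK-(D9Rat35-D9Rat70)/Mcwi by the submitters, in which PCK chromosome between those markers replaces that of the inbred FHH (Fawn Hooded Hypertensive) strain, with which it is compared. The congenic segment can hold other genes than Pkhd1, and PCK can differ from SD elsewhere in the genome. The kidney RNA of 6 animals per strain, both kidneys taken, was combined into 1 pool and run on 3 arrays. The 3 arrays are technical repeats of 1 pool, so each SD, SE and p-value below measures the spread between arrays and none measures the spread between animals.

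Tissue macrophages are phagocytic cells that lie between the tubules of the kidney, where they clear debris, present antigen and take part in injury and repair. They depend on the CSF1 receptor for survival, and they are classed by surface receptors such as the mannose receptor Mrc1, the haemoglobin scavenger Cd163 and the fractalkine receptor Cx3cr1. Monocytes that enter from blood carry other mixtures of these receptors, and in rodent models of cystic kidney disease Mrc1-positive macrophages have been described near cysts. In a pool of whole kidney, a change in the number of macrophages and a change in RNA per macrophage cannot be told apart.

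Values are log2 signals as deposited. Tests covered the 19359 probe sets with at least 1 pool mean of 5.75 or more, which is the 40th percentile over the whole table and serves as a working detection level. A call required a limma adjusted p below 0.05 together with a difference of 1.5-fold or more (0.585 on the log2 scale). Of the 10 member probe sets 8 were tested, while Cd163 and Cx3cr1 stayed below the level in every pool mean. Adgre1 passed only through its SD mean, so it was bound to stand highest there. No fold is given where a pool mean lies below the level.

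The tissue and the cell label were checked against marker lists. All 7 proximal tubule genes named on the array were tested, and Umod, the uromodulin of the loop of Henle, stood at 13.40 in PCK, 13.42 in SD, 13.69 in FHH.Pkhd1 and 13.68 in FHH. Lymphoid transcripts were scarce, with 2 of 10 T cell genes, 1 of 4 B cell genes and 0 of 6 natural killer cell genes above the level, and no CD3 chain among them. Of 18 further general macrophage genes on the array all 18 had a tested probe set. Adrenal genes set the pools apart. Their summed linear signal over 5 probe sets was 1326.5 to 1402.5 in FHH.Pkhd1 and 645.2 to 652.2 in FHH. It was 174.8 to 190.2 in PCK and 186.7 to 199.4 in SD. Akr1b7 and the Star probe sets passed the filter only through FHH.Pkhd1 or FHH. They were thus bound to stand higher in FHH.Pkhd1 than in PCK and SD. Fat genes differed between backgrounds as well, with a summed signal over 5 probe sets of 861.2 to 932.5 in PCK and 1104.5 to 1141.1 in SD, against 2163.1 to 2303.3 in FHH.Pkhd1 and 2073.2 to 2251.6 in FHH. In both PCK minus FHH.Pkhd1 and SD minus FHH, 4 of those 5 were called lower. Of all tested probe sets 3.79% and 1.92% were called lower there. Plin1, 1 of the 4, passed the filter only through FHH.Pkhd1 and FHH, so it was bound to be lower in PCK and SD. The part of adrenal tissue or fat in the macrophage differences was not tested.

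Of the 10 members, 4 were called in at least 1 comparison, Mrc1, Fcgr3a, Cd53 and Ctss. Their promoters, from 250 bases before to 50 bases after the start site, are printed because these genes carry the differences described below. The sequences are the RefSeq promoters of the GRCr8 assembly, a BN rat, and not of the strains measured. Capitals mark TTCCTC, the reverse complement of GAGGAA, the purine-rich box that the macrophage factor PU.1 binds.
Mrc1, the mannose receptor (chr17:82157475-82157774, plus strand): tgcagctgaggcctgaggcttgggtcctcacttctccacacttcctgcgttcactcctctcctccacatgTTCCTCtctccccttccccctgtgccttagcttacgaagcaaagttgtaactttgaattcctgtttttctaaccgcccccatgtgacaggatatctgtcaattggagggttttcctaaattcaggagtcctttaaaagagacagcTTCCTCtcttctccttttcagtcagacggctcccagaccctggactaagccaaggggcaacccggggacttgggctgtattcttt
Fcgr3a, an Fc receptor (chr13:85782386-85782685, plus strand): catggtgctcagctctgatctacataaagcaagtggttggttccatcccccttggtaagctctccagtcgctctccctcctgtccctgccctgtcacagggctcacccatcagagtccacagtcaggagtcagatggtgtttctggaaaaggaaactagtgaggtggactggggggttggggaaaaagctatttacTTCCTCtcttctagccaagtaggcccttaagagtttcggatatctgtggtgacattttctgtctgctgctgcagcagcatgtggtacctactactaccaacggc
Cd53, a leukocyte tetraspanin (chr2:197087847-197088146, minus strand): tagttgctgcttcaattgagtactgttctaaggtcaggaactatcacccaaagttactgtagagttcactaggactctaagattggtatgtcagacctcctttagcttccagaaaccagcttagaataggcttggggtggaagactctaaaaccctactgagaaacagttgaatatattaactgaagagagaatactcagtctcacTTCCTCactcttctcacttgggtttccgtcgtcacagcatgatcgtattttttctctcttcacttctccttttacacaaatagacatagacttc
Ctss, cathepsin S (chr2:185775146-185775445, plus strand): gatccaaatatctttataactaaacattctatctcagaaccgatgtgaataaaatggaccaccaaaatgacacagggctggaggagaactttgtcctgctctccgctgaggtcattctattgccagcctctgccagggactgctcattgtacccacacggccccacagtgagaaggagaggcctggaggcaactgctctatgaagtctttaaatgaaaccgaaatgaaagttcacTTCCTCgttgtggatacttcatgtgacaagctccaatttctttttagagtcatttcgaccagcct

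In all 4 promoters the box was read on the strand opposite to the gene. Its nearest copy began 35 bases before the start site in Mrc1, 54 in Fcgr3a, 44 in Cd53 and 15 in Ctss, and Mrc1 held another copy 180 bases before it. With both strands searched, 8 of the 10 member promoters held the letters, against 27.6% of the 33469 promoters of 300 bases in the table. The motif was chosen after the promoters were seen. A match of letters describes the sequence and is not a site of binding.

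**Figure D1:**
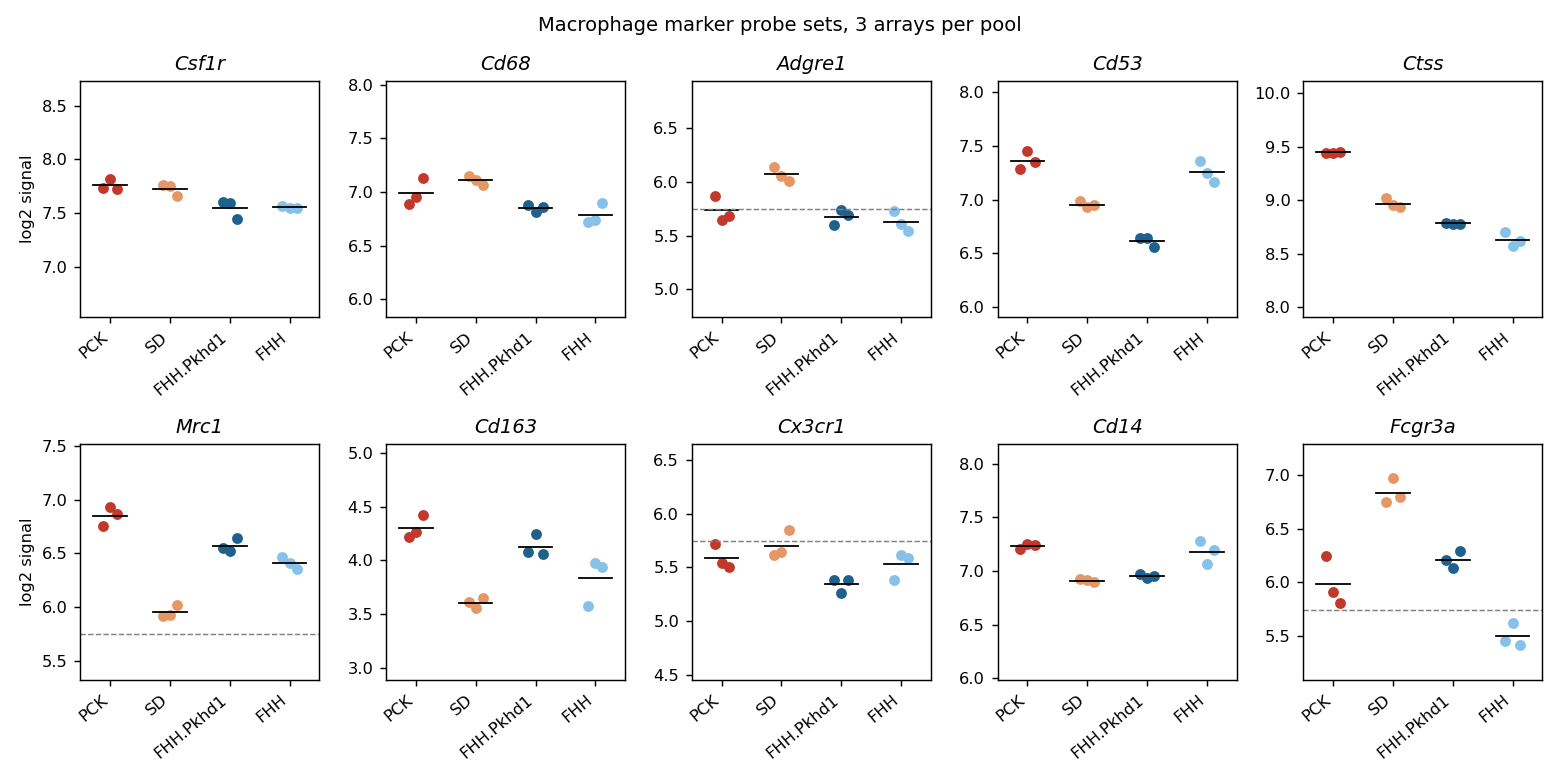
Log2 signal (vertical axis, every panel covering an equal span) of the 10 macrophage marker probe sets on each of 3 arrays per pool, with pools along the horizontal axis. Points are arrays, black lines are pool means, and the dashed line is the working detection level of 5.75 where it falls inside the panel. Csf1r and Cd68 overlap within both Pkhd1 pairs, Mrc1 is highest in PCK and lowest in SD, and Fcgr3a is highest in SD and lowest in FHH.

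Csf1r and Cd68 overlapped within both Pkhd1 pairs. Csf1r, the receptor for the growth factors CSF1 and IL34, had signals of 7.74, 7.82 and 7.72 in PCK, 7.76, 7.75 and 7.66 in SD, 7.60, 7.59 and 7.44 in FHH.Pkhd1 and 7.56, 7.55 and 7.55 in FHH. The arrays of PCK overlapped those of SD, and the arrays of FHH.Pkhd1 overlapped those of FHH. Its pool means spanned 0.21, the narrowest range of the 10 members. Cd68, an endosomal and lysosomal glycoprotein of phagocytes, had 6.89, 6.95 and 7.13 in PCK, 7.15, 7.11 and 7.07 in SD, 6.88, 6.82 and 6.86 in FHH.Pkhd1 and 6.72, 6.73 and 6.90 in FHH. Its differences were -0.12 ± 0.06 (SE) for PCK minus SD and 0.07 ± 0.06 for FHH.Pkhd1 minus FHH, neither below an adjusted p of 0.05 in limma.

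Adgre1, the adhesion receptor known in mouse as F4/80, lay near the detection level. It had 5.87, 5.65 and 5.69 in PCK, 6.14, 6.06 and 6.01 in SD, 5.60, 5.74 and 5.69 in FHH.Pkhd1 and 5.73, 5.61 and 5.54 in FHH. The SD arrays stood above all 9 others, and the other 3 pools overlapped. The difference of PCK minus SD was -0.33 ± 0.07 (limma adjusted p = 0.00273), short of the 1.5-fold limit. Its direction was fixed in advance, since the probe set passed the filter through SD alone.

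Cd53, a tetraspanin of leukocytes in general rather than of macrophages alone, had 7.29, 7.45 and 7.35 in PCK against 6.98, 6.93 and 6.95 in SD. It had 6.64, 6.64 and 6.56 in FHH.Pkhd1 against 7.36, 7.25 and 7.16 in FHH. The arrays of each pair did not overlap, and they were apart in opposite directions, higher in PCK than in SD and lower in FHH.Pkhd1 than in FHH. The SDs of the 3 arrays were 0.08 in PCK, 0.03 in SD, 0.05 in FHH.Pkhd1 and 0.10 in FHH.

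Ctss, cathepsin S, the lysosomal protease that trims the invariant chain in antigen presenting cells, had 9.44, 9.44 and 9.45 in PCK and 9.02, 8.95 and 8.93 in SD. It had 8.79, 8.78 and 8.78 in FHH.Pkhd1 and 8.70, 8.57 and 8.62 in FHH. Its order was PCK, SD, FHH.Pkhd1, FHH, and no neighbouring pools in that order overlapped.

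Among the subset markers, Mrc1 set all 4 pools apart. This endocytic receptor of tissue macrophages, which some endothelial cells make as well, had 6.75, 6.93 and 6.87 in PCK against 5.91, 5.93 and 6.02 in SD. In the other pair it had 6.55, 6.52 and 6.64 in FHH.Pkhd1 against 6.47, 6.41 and 6.35 in FHH. The order was PCK, FHH.Pkhd1, FHH, SD, again with no overlap between neighbours. Taken within each array, the Mrc1 minus Csf1r difference was -0.98 to -0.85 in PCK and -1.85 to -1.64 in SD, and -1.07 to -0.80 in FHH.Pkhd1 and -1.20 to -1.09 in FHH. Its size depends on the probes and only its change between pools can be read. The ranges did not overlap within either pair. Of 5 tested endothelial probe sets, Vwf, the von Willebrand factor, was called in PCK minus SD (0.76 ± 0.06), with Mrc1. It was also called in FHH.Pkhd1 minus FHH (-0.89 ± 0.06), where Mrc1 was not called. Of all tested probe sets 3.49% and 1.90% were called in these 2 comparisons. The part of endothelium in the Mrc1 difference was not tested.

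Cd163, the haemoglobin scavenger receptor known in rat as the ED2 antigen, was below the detection level on all 12 arrays and was not tested. Its signals were 4.22, 4.26 and 4.42 in PCK, 3.61, 3.55 and 3.65 in SD, 4.08, 4.24 and 4.06 in FHH.Pkhd1 and 3.58, 3.97 and 3.94 in FHH. At that level no order of the pools can be read. Cx3cr1, the fractalkine receptor, had pool means of 5.59 ± 0.11 in PCK, 5.70 ± 0.13 in SD, 5.34 ± 0.07 in FHH.Pkhd1 and 5.53 ± 0.13 in FHH (SD, n = 3 arrays of 1 pool). Each neighbouring pair of pools overlapped, and 1 of its 12 arrays reached the level.

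Cd14, the coreceptor through which phagocytes sense endotoxin, had 7.20, 7.25 and 7.24 in PCK against 6.92, 6.91 and 6.89 in SD, and 6.97, 6.93 and 6.95 in FHH.Pkhd1 against 7.27, 7.07 and 7.19 in FHH. As for Cd53, the arrays of both pairs were apart, higher in PCK than in SD and lower in FHH.Pkhd1 than in FHH. The pool means spanned 0.32 in all.

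Fcgr3a, a receptor for the constant part of IgG that RefSeq also lists under the older name Fcgr4, had the widest range of pool means, 1.34. Its signals were 6.24, 5.91 and 5.81 in PCK against 6.75, 6.97 and 6.80 in SD, and 6.21, 6.13 and 6.29 in FHH.Pkhd1 against 5.46, 5.62 and 5.42 in FHH. All PCK arrays lay below all SD arrays, and all FHH.Pkhd1 arrays lay above all FHH arrays, which were below the detection level, so differences against FHH have an uncertain size. The probe set passed the filter through the other 3 pools alone, so it was bound to stand lowest in FHH. PCK and FHH.Pkhd1 overlapped each other. Its PCK arrays were also the most spread of the 10 members, with an SD of 0.23.

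PCK was set against SD, the stock it descends from, to see what separates mutant from parental kidney. Mrc1 was higher in PCK and Fcgr3a was lower. Mrc1 averaged 6.85 ± 0.09 in PCK and 5.95 ± 0.06 in SD (SD, n = 3 arrays of 1 pool), a 1.86-fold difference of 0.90 ± 0.06 (SE, limma adjusted p = 1.98e-07). Fcgr3a averaged 5.99 ± 0.23 in PCK and 6.84 ± 0.12 in SD, 1.80-fold lower in PCK (-0.85 ± 0.10, limma adjusted p = 5.55e-05). These were 2 of 8 tested members, 1 in each direction, where 3.49% of all tested probe sets were called, 1.79% of them higher and 1.70% lower as shares of all tested.

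Below the fold limit but under an adjusted p of 0.05 in limma were Ctss (0.48 ± 0.04), Cd53 (0.41 ± 0.06), Cd14 (0.32 ± 0.05) and Adgre1. The filter bound Adgre1 to be lower in PCK than in SD. Counted by adjusted p alone, 6 of 8 members passed, against 32.5% of all probe sets tested. Csf1r (0.04 ± 0.05) and Cd68 were the other two. The members' median difference was 0.18 and the median of all tested probe sets was -0.01. The arrays of PCK and SD did not overlap for 7 of the 10 members, the untested Cd163 among them. This was also the case for 45.1% of tested probe sets.

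**Figure D2:**
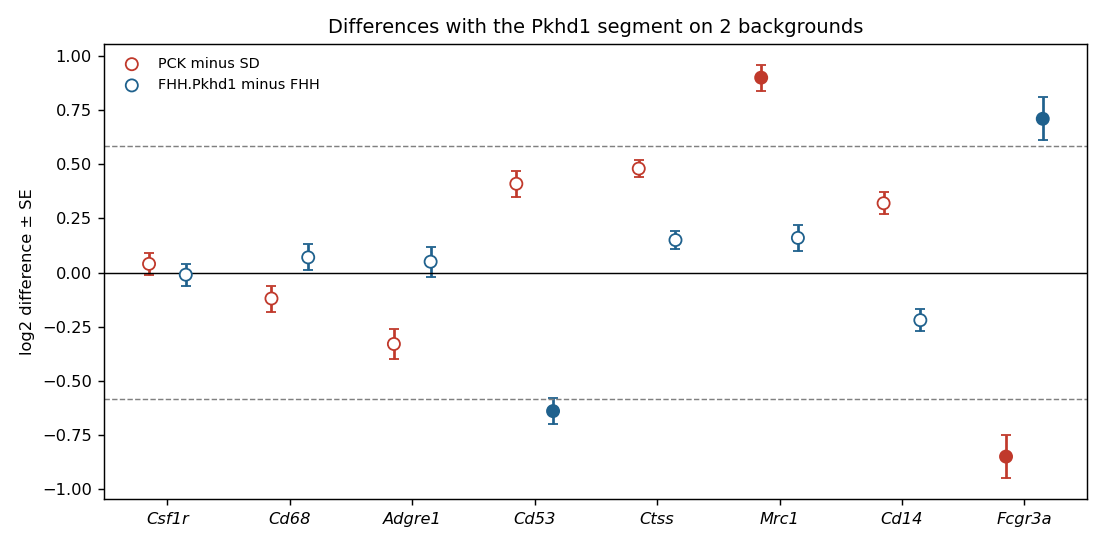
Log2 difference with its SE (vertical axis) for the 8 tested macrophage markers (horizontal axis), PCK minus SD in red and FHH.Pkhd1 minus FHH in blue. Filled points were called, open points were not, and dashed lines mark 1.5-fold in each direction. Cd53, Cd14 and Fcgr3a lie on opposite sides of 0 in the 2 comparisons, and Mrc1 is called in PCK minus SD alone.

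FHH.Pkhd1 and FHH share the FHH background, and their comparison asks what the PCK segment of chromosome 9 goes with there. Fcgr3a was higher and Cd53 lower in FHH.Pkhd1. Fcgr3a averaged 6.21 ± 0.08 in FHH.Pkhd1 and 5.50 ± 0.11 in FHH, a difference of 0.71 ± 0.10 (SE, limma adjusted p = 0.000439). FHH lay below the detection level, so the filter fixed that direction in advance. Cd53 averaged 6.61 ± 0.05 in FHH.Pkhd1 and 7.26 ± 0.10 in FHH, 1.56-fold lower in FHH.Pkhd1 (-0.64 ± 0.06, limma adjusted p = 1.01e-05).

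Again 2 of 8 tested members were called, against 1.90% of all tested probe sets (0.899% higher and 1.0% lower). Of 5 neutrophil genes 1 was tested, S100a9, at 5.82 in FHH.Pkhd1 and 4.58 in FHH. It passed the filter only through FHH.Pkhd1, so it was bound to stand highest there. Cd14 (-0.22 ± 0.05) and Ctss (0.15 ± 0.04) passed the adjusted p but not the fold limit, which made 4 of 8 by adjusted p alone, against 21.0% of all. Mrc1 gave 0.16 ± 0.06 and missed the threshold (limma adjusted p = 0.0596), and Csf1r gave -0.01 ± 0.05. The members' median difference was 0.06 and that of all tested probe sets 0.02. Arrays did not overlap for 6 of 10 members, the untested Cd163 among them, against 37.4% of tested probe sets.

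The 2 Pkhd1 comparisons were set against each other as an interaction, the PCK and SD difference less the FHH.Pkhd1 and FHH one. PCK can differ from SD outside the segment, so this term does not isolate how a segment effect depends on background. Called in this interaction were Fcgr3a (-1.56 ± 0.14, limma adjusted p = 8.61e-06), Cd53 (1.06 ± 0.08, adjusted p = 1.73e-06) and Mrc1 (0.74 ± 0.08, adjusted p = 2.73e-05). That is 3 of 8 members, 2 of them positive and 1 negative, against 6.44% of all tested probe sets (3.13% positive and 3.31% negative). Cd14 gave 0.54 ± 0.07, Adgre1 -0.38 ± 0.10 and Ctss 0.32 ± 0.06, each under an adjusted p of 0.05 but short of 1.5-fold. By adjusted p alone 6 of 8 members passed, against 30.1% of all. Adgre1 counts among them although it passed the filter through SD alone, and Fcgr3a although it passed through the pools other than FHH alone. Csf1r (0.04 ± 0.07) and Cd68 (-0.19 ± 0.09) did not pass the adjusted p.

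Control probe sets moved along with some of these values. The bacterial poly-A RNAs spiked in ahead of labelling averaged 10.81 ± 0.07 in PCK against 10.47 ± 0.08 in SD, and 10.01 ± 0.10 in FHH.Pkhd1 against 11.11 ± 0.02 in FHH (SD, n = 3 arrays of 1 pool). The beta-actin probe sets gave a 3' less 5' signal, which tracks RNA integrity and labelling, of 1.33 ± 0.02 in PCK against 1.10 ± 0.03 in SD, and of 1.20 ± 0.02 in FHH.Pkhd1 against 1.39 ± 0.02 in FHH. In the 4 comparisons both measures reached p = 0.1 in exact permutation tests (two-sided), and 3 arrays against 3 cannot give less. Both were higher in PCK than in SD and in FHH.Pkhd1, and lower in FHH.Pkhd1 and in SD than in FHH, as were Cd53 and Cd14. The hybridization controls had the same signs, at 10.50 ± 0.12 in PCK, 10.41 ± 0.34 in SD, 10.21 ± 0.16 in FHH.Pkhd1 and 10.61 ± 0.05 in FHH. The part of labelling, hybridization or RNA integrity in the Cd53 and Cd14 differences was not tested.

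PCK and FHH.Pkhd1 have the mutant Pkhd1 region in common and differ in background. Cd53 and Ctss were higher in PCK. Cd53 averaged 7.36 ± 0.08 in PCK and 6.61 ± 0.05 in FHH.Pkhd1, 1.68-fold apart (0.75 ± 0.06, SE, limma adjusted p = 5.7e-07). Ctss averaged 9.44 in PCK and 8.78 in FHH.Pkhd1, with array SDs that round to 0.00, and differed 1.58-fold (0.66 ± 0.04, limma adjusted p = 8.59e-08). So 2 of 8 members were called, both higher, where 6.91% of all tested probe sets were called, 3.11% higher and 3.79% lower. By adjusted p alone 5 of 8 members passed, all higher in PCK, against 51.7% of all. The other 3 were Mrc1 (0.28 ± 0.06), Cd14 (0.28 ± 0.05) and Csf1r (0.21 ± 0.05), while Fcgr3a gave -0.22 ± 0.10 with a limma adjusted p of 0.0864. Arrays did not overlap for 7 of 10 members, the untested Cx3cr1 among them, against 59.1% of tested probe sets.

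SD and FHH lack the segment. Fcgr3a was higher in SD (6.84 ± 0.12) than in FHH (5.50 ± 0.11), a difference of 1.34 ± 0.10 (SE, limma adjusted p = 1.21e-06). With FHH below the detection level, the filter fixed that direction in advance. Fcgr3a was the 1 member called of 8, against 3.72% of all tested probe sets (1.81% higher and 1.92% lower). All 8 passed the adjusted p, against 34.9% of all, in both directions. Higher in SD but under 1.5-fold were Adgre1 (0.44 ± 0.07), Ctss (0.34 ± 0.04), Cd68 (0.32 ± 0.06) and Csf1r (0.17 ± 0.05). For Adgre1 the filter fixed that direction in advance. Lower in SD were Mrc1 (-0.46 ± 0.06), Cd53 (-0.31 ± 0.06) and Cd14 (-0.27 ± 0.05). Arrays did not overlap for 9 of 10 members, the untested Cx3cr1 among them, against 48.3% of tested probe sets. The 4 comparisons share pools, so their values are set side by side and are not independent of each other.

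**Figure D3:**
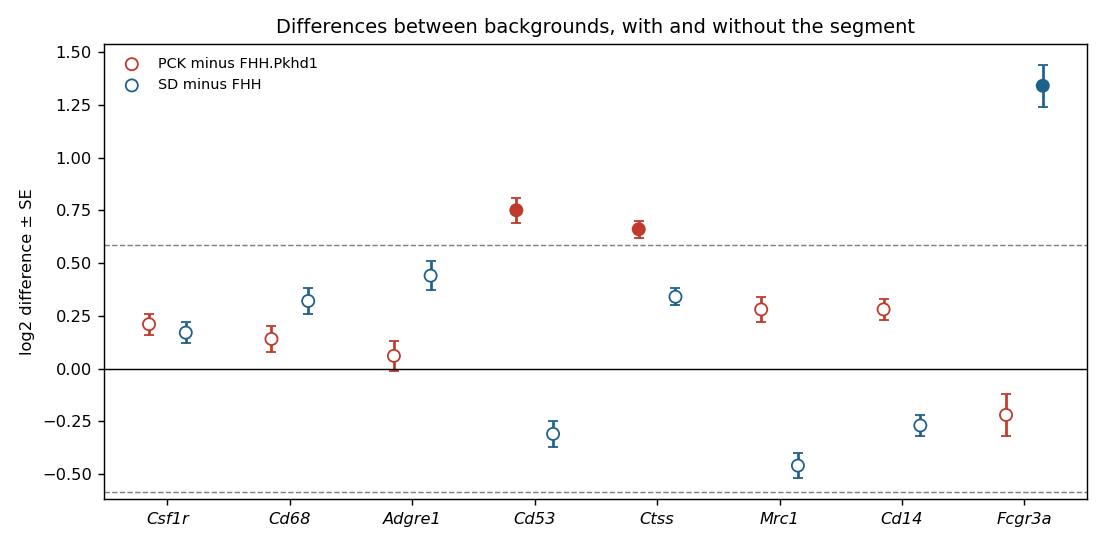
Log2 difference with its SE (vertical axis) for the 8 tested macrophage markers (horizontal axis), red for PCK minus FHH.Pkhd1 and blue for SD minus FHH. Filled points were called, open points were not, and dashed lines mark 1.5-fold in each direction. Mrc1, Cd53 and Cd14 are above 0 between the strains with the segment and below 0 between those without it.

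Of 6 tested probe sets of Fc receptors and their signalling partners, Fcgr3a alone was called in any of the 5 comparisons. Of all tested probe sets 1.90% to 6.91% were called in them. Fcgr1a, the high-affinity IgG receptor, had 6.96 in PCK, 6.92 in SD, 6.85 in FHH.Pkhd1 and 6.84 in FHH. A pair of probe sets each annotated to more than 1 low-affinity receptor gene gave 0.25 ± 0.08 and 0.23 ± 0.08 in PCK minus SD, where Fcgr3a gave -0.85. Neither was called in any of the 5 comparisons. Fcgr2b, the inhibitory receptor, was below the detection level in every pool. The gamma chain Fcer1g, which Fcgr3a needs for signalling, stood at 9.20 in PCK, 9.25 in SD, 8.98 in FHH.Pkhd1 and 8.98 in FHH. Rat low-affinity Fc receptor genes lie in a cluster of related copies, so the Fcgr3a value rests on 1 probe set and cross-hybridization was not tested.

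The 5 probe sets of other named genes whose centred profile lay nearest to that of Fcgr3a were those of Pou2f1, an octamer-binding transcription factor, the cholesterol exporter Abca1, the glycine decarboxylase Gldc, the transglutaminase Tgm2 and the beta-globin Hbb. Their root mean square differences from it were 0.20 to 0.24 log2 units, with Pearson r of 0.89 to 0.96 over 12 arrays that come from 4 pools, given as a description. Hbb stood at 12.66 in PCK, 13.45 in SD, 12.74 in FHH.Pkhd1 and 12.55 in FHH. Red cell transcripts as a list moved with the pools as well. Their summed linear signal over 5 probe sets was 7516.7 to 7639.8 in PCK against 12560.2 to 12716.5 in SD, and 8102.1 to 8546.7 in FHH.Pkhd1 against 6946.2 to 7093.8 in FHH. Between PCK and SD 3 of the 5 were called lower, Ahsp, Alas2 and Hbb, against 1.70% of all tested probe sets. In FHH.Pkhd1 minus FHH 2 were called higher, against 0.899% of all tested. They were the 2 probe sets of Slc4a1, the band 3 anion exchanger that intercalated cells also make. The part of blood in the Fcgr3a differences was not tested.

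Beyond the 10 members, 21 probe sets of 18 general macrophage genes were tested. In PCK minus SD none was called higher and 1 lower, against 3.49% of all tested probe sets called in either direction. That 1 was Cd74, the invariant chain of class II histocompatibility molecules (-0.72 ± 0.04, limma adjusted p = 3.04e-08). The list median was 0.06. In FHH.Pkhd1 minus FHH none was called, against 1.90% of all tested. The largest differences there were those of the beta-2 integrin Itgb2 (-0.51 ± 0.06) and the galectin Lgals3 (0.30 ± 0.05). The complement subunits C1qa, C1qb and C1qc, which kidney macrophages make in abundance, differed by 0.00, 0.06 and 0.06 between PCK and SD. They gave 0.13, 0.30 and 0.24 for FHH.Pkhd1 minus FHH, where C1qb (limma adjusted p = 0.0176) and C1qc (0.0133) passed the adjusted p but not the fold limit. All 3 did so for SD minus FHH, at 0.21, 0.39 and 0.25. Cd74 was lower in PCK than in FHH.Pkhd1 (-0.85 ± 0.04) while Ctss, which cleaves it, was higher. Itgb2 was called higher in that comparison (0.61 ± 0.06). So 1 of the 21 was called in each direction, where 6.91% of all tested probe sets were called. In the interaction 2 of the 21 were called positive and 1 negative, where 6.44% of all tested probe sets were called. Itgb2 (0.84 ± 0.08) and the GM-CSF receptor chain Csf2ra (0.65 ± 0.08) had the sign of Cd53. Cd74 had the opposite sign (-0.84 ± 0.05).

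Between PCK and SD, 1 of 11 resident and 2 of 11 recruited probe sets were called, against 3.49% of all tested. Of 11 tested probe sets of resident macrophage genes, Apoe alone was called, higher in PCK than in SD (1.08 ± 0.04, limma adjusted p = 3.04e-09). The list's median was -0.20. Apoe is made by other kidney cells too, and in FHH.Pkhd1 minus FHH it gave 0.45 ± 0.04, below the fold limit. It stood at 12.53 in PCK, 11.45 in SD, 12.62 in FHH.Pkhd1 and 12.17 in FHH, and was called lower in SD than in FHH (-0.72 ± 0.04). Of the 11 tested probe sets of recruited monocyte and inflammatory genes, Gpnmb rose in PCK (1.27 ± 0.07) and the integrin Itgax, a marker of dendritic cells and some macrophages, fell (-0.77 ± 0.08). Neither Gpnmb (-0.03) nor Itgax (-0.41 ± 0.08) was called in FHH.Pkhd1 minus FHH. Ccr2, the receptor of incoming monocytes, stayed below the detection level at 3.39 to 3.76. Between PCK and FHH.Pkhd1, 1 of 11 resident and 3 of 11 recruited probe sets were called, against 6.91% of all tested. The hyaluronan receptor Lyve1, which lymphatic endothelium also makes, was lower in PCK than in FHH.Pkhd1 (-0.60 ± 0.04) by 1 of its probe sets, while the other gave -0.53 and was not called. Spp1, osteopontin, which injured tubules also secrete, was higher in PCK than in FHH.Pkhd1 (0.90 ± 0.04). Arg1, an arginase, was lower in PCK than in FHH.Pkhd1 (-1.06 ± 0.06) and also called lower in SD (5.66) than in FHH (6.66). It passed the filter only through FHH.Pkhd1 and FHH, with PCK and SD below the level, so both directions were fixed in advance. In the interaction 2 of 11 resident and 1 of 11 recruited probe sets were called, all positive, against 6.44% of all tested. They were Apoe (0.63 ± 0.06), Stab1 (0.60 ± 0.06) and Gpnmb (1.30 ± 0.09).

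None of 18 tested probe sets of colony stimulating factors, chemokines and related ligands was called in either Pkhd1 comparison. The 4 probe sets of Csf1, the main Csf1r ligand, gave 0.02 to 0.20 in PCK minus SD. Il34, the other Csf1r ligand, which tubule cells make, was higher in SD than in FHH (0.72 ± 0.06), and it gave -0.34 in PCK minus SD. Cx3cl1, the ligand of Cx3cr1, gave -0.19 for PCK minus SD and -0.10 for FHH.Pkhd1 minus FHH. The chemokine Ccl5, which T cells also secrete, was higher in PCK than in FHH.Pkhd1 (1.05 ± 0.10). Also called there were Ccl4, higher in PCK (0.63 ± 0.06) with FHH.Pkhd1 below the detection level, and Hp, lower in PCK (-0.59 ± 0.09). Of all tested probe sets 6.91% were called in that comparison. Ccl4 was called higher in SD than in FHH too (0.60 ± 0.06). Of 9 tested probe sets of the endotoxin pathway, Cd14 included, none was called in any of the 5 comparisons. Of all tested probe sets 1.90% to 6.91% were called in them. Tlr4 itself stayed below the detection level. Of 16 tested lysosomal probe sets none was called in PCK minus SD, against 3.49% of all tested. Ctss, itself on that list, was largest there and the aspartic protease Ctsd gave 0.43 ± 0.04. In PCK minus FHH.Pkhd1 1 of the 16 was called, Ctss, against 6.91% of all tested. In the interaction 1 was called, a probe set of Ctsl (0.64 ± 0.05), against 6.44%. The other Ctsl probe set gave -0.02.

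**Figure D4:**
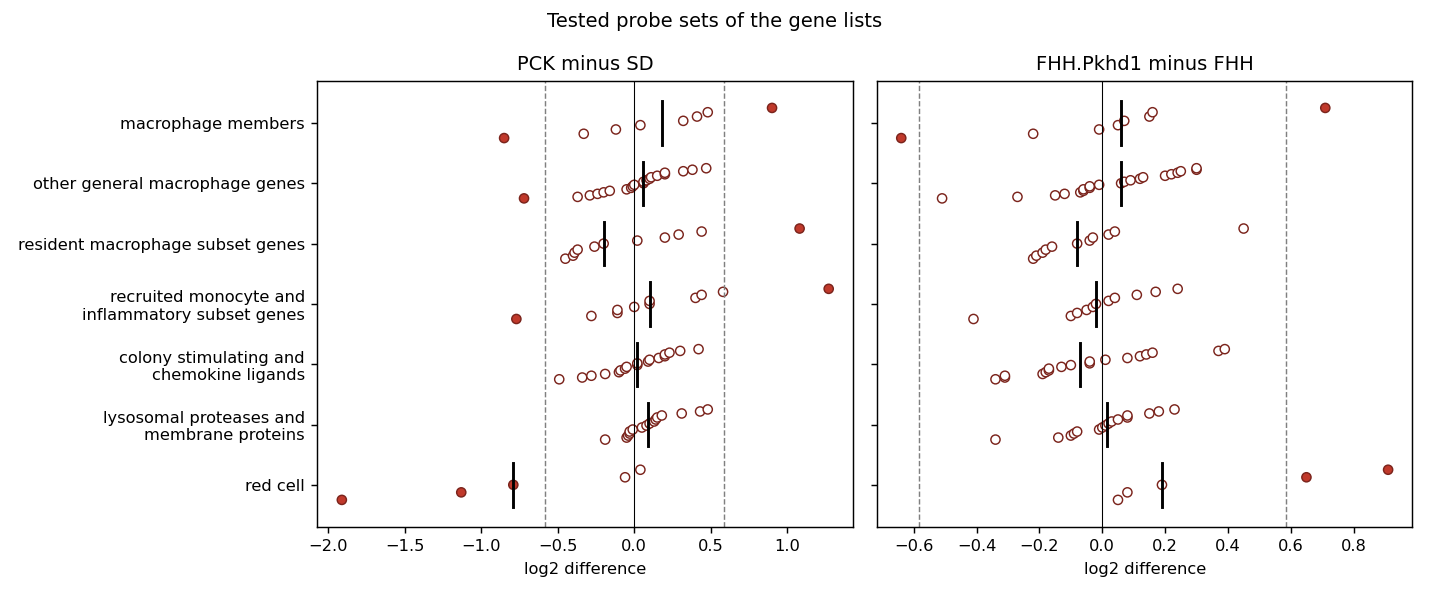
Log2 difference (horizontal axis, a separate scale in each panel) of every tested probe set of the members and of 6 other gene lists (rows), for PCK minus SD on the left and FHH.Pkhd1 minus FHH on the right. Each point is a probe set, filled where called, black bars are list medians and dashed lines mark 1.5-fold. The members have medians of 0.18 on the left and 0.06 on the right, the other macrophage gene lists have medians between -0.20 and 0.10, and the red cell list has a median of -0.79 on the left and 0.19 on the right.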

How the data were processed

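Log2 probe set signals were taken as deposited. The authors made them with RMA, and Partek 6.2 is listed too, per the submitters' processing notes. The sources used here do not say if all 12 arrays were normalized as 1 set. Array medians were 6.41 to 6.46, correlations within a pool 0.9973 to 0.9985, and 3 arrays per pool limit precision. Of 31099 probe sets 57 controls were left out. Symbols came from the platform annotation, updated through gene IDs to GRCr8: 20826 probe sets carried 1 symbol, 436 several and 9780 none.

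limma 3.58.1 in R 4.3.3 fitted 1 mean per strain to all 12 arrays, with eBayes moderation (3.77 prior and 8 residual degrees of freedom) and Benjamini-Hochberg adjustment over 19359 probe sets. The procedure was tested on simulated data. Members and lists were chosen with earlier results of these data known. All member probe sets are named; of other lists, counts and up to 4 called genes a comparison, or the 2 largest differences where none was called. Other list genes named with values (Umod, C1qa, C1qb, C1qc, Csf1, Ccr2, Tlr4, Cx3cl1, Fcgr1a, Fcgr2b, Fcer1g and further values of genes so named) were added after their values were seen. Alternatives covered the filter, probe sets per gene, fold limit, variance model, arrays in the fit, normalization, replicate block and leaving out each array.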

Additional observations from a re-analysis of the deposited data

Results flagged for a closer look

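For 3 members the difference PCK minus SD was not the same as FHH.Pkhd1 minus FHH, by the interaction term of the limma fit. PCK can differ from SD outside the segment, so the term does not isolate a segment effect that depends on background. Fcgr3a gave -1.56 (adjusted p = 8.61e-06), lower in PCK than in SD on all 3 arrays and higher in FHH.Pkhd1 than in FHH on all 3. FHH lies below the detection level for this probe set, so the size of the term rests on a signal not measured above that level. The filter was passed through the other pools alone, which fixed the direction of FHH.Pkhd1 over FHH in advance. Cd53 gave 1.06 (adjusted p = 1.73e-06) with the opposite signs, on all 3 arrays of each pair. Mrc1 gave 0.74 (adjusted p = 2.73e-05), from a difference of 0.90 between PCK and SD and of 0.16 between FHH.Pkhd1 and FHH. Each pool is 1 sample of 6 animals, so these terms compare 4 pools.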

How the results depend on the processing

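Apart from the fold limit, 771 of 772 values of single members stayed on their side of the call threshold; the exception was Cd14 in the interaction, called at 0.60 without FHH replicate 2. No called value reversed. 3 uncalled values near 0 changed sign under 1 setting each: with 1 array left out Adgre1 gave -0.01 to 0.10 for PCK over FHH.Pkhd1, and Csf1r -0.04 to 0.05 for FHH.Pkhd1 over FHH and -0.01 to 0.07 in the interaction. Leaving out each array in turn gave 676 to 714 calls between PCK and SD, 342 to 434 for FHH.Pkhd1 over FHH, 1279 to 1426 for PCK over FHH.Pkhd1, 721 to 744 for SD over FHH and 1192 to 1323 in the interaction, and 2, 2, 2, 1 and 3 to 4 members. With 2-fold as the limit, calls in the same order were 221, 73, 436, 230 and 370, and members called were 0, 0 and 0 in the first 3, by construction. With no fold limit they were 6299, 4061, 10017, 6756 and 5821, with 6, 4, 5, 8 and 6 members. With 1 probe set per gene, and so fewer tested, they were 339, 138, 635, 361 and 546. The stricter filter, at the 60th percentile, gave 237 calls in FHH.Pkhd1 minus FHH and 891 in PCK minus FHH.Pkhd1. It left out Mrc1 and Fcgr3a, so members called were 0 for PCK over SD, 1 for FHH.Pkhd1 over FHH, 0 for SD over FHH and 1 in the interaction. With no filter, Cd163 was called in PCK minus SD (0.70, limma adjusted p = 0.000303). With the replicate block, calls were 676, 368, 1337, 721 and 1244, and member calls did not change. The interaction needs all 4 strains and was not fitted with only the strains compared. The numbers did not pair the arrays: deviations of same-numbered arrays correlated at -0.332 to 0.346, above 0.1 in 6 of 18 pairs. Signal over background limits Cd163, Cx3cr1, Adgre1 and, in FHH, Fcgr3a.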
